A study of Cricetulus griseus with 8 samples.

Results

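Transcripts of actin, actin regulators and focal adhesion proteins were followed in LR73, a fibroblast line of the Chinese hamster that serves here as the phagocyte. The set was a fixed list of 49 gene symbols matched to the gene names of the table. It held 48 of them among 26776 named genes, with no row for Myl12a. Of the 48, 46 reached a mean of 10 normalized counts and were tested among 13494 genes. A normalized count is the read count of a gene after division by the size factor of its library. LR73 cells were cultured alone (4 libraries) or together with apoptotic Jurkat cells, a human T cell line (4 libraries). The Jurkat cells had received 1500 mJ of UV-C light and 4 h of further culture before the co-culture, whose length is not given in the sources used here. All 8 libraries came from the same line in the same growth medium, and the labels give no genotype or further agent. All 8 deposited columns used carry the letters GFP in their names, whose meaning is not given in the sources used here. Replicates are described as biological in the design text without a word on how the cultures were kept apart, so p-values measure the spread between these samples.

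Actin monomers assemble into filaments that push the cell membrane forward and, with myosin II, pull on it. Branched networks are nucleated by the Arp2/3 complex, which WASP and WAVE proteins switch on, and long filaments are extended by formins and Ena/VASP proteins. At focal adhesions, integrins tie the filaments to the matrix outside through talin, vinculin and other adaptors. Engulfment of a dying cell needs such branched actin beneath the phagocytic cup. Many of these genes are targets of the transcription factor SRF and its coactivators of the myocardin family, which are held back by free actin monomers.

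With apoptotic cells, 5 of the 46 tested members rose and none fell by limma at an adjusted p under 0.05. The 5 were Ezr (ezrin, a linker of actin to the membrane), Enah (a filament elongation factor of the Ena/VASP family), Actg1 (cytoplasmic gamma-actin), Itga5 (the alpha subunit of the fibronectin receptor) and Actr2 (the Arp2 subunit of the Arp2/3 complex). All of these changes were small, from 12% for Actr2 to 29.3% for Ezr as a change of the group means. The members called higher made up 10.9% of those tested, beside a background of 6.36% of all tested genes. In both directions together the share was 10.9%, beside 11.7% of all tested genes, so the number of changed members was near the background. Among all tested genes 5.31% were called lower. At an unadjusted p under 0.05, 10 members were higher and 3 lower by limma, 28.3% of the members beside 26.5% of all tested genes. The same 5 members and no others were called, all higher, from recovered read counts by edgeR (beside 6.20% of all genes higher and 5.37% lower, 11.6% together) and by DESeq2 (6.52% and 5.27%, 11.8% together). In these bulk samples more transcript per cell and more cells of a kind in the dish cannot be told apart. In the authors' deposited table the 5 were also the members with an adjusted p under 0.05.

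The median log2 fold change of the 46 members was 0.06, beside 0.00 over all tested genes. It was 0.04 without alone library 1 and 0.05 or 0.06 without any other library. Of the 46, 33 had a log2 fold change above 0 (71.7%, beside 50.4% of all tested genes) and 13 below. Those above 0 numbered 30 without alone library 1 and 31 to 34 without any other library. In 12 members every co-culture value lay above every value of cells alone (26.1%, beside a background of 11.4% of all tested genes), and in 2 every co-culture value lay below (4.35%, beside 9.72%). Together these were 30.4% of the members, beside 21.2% of all tested genes. Summed over the 48 members, normalized counts made up 1.69 to 1.75% of all named gene counts in cells alone and 1.77 to 1.8% in the co-cultures.

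**Figure D1:**
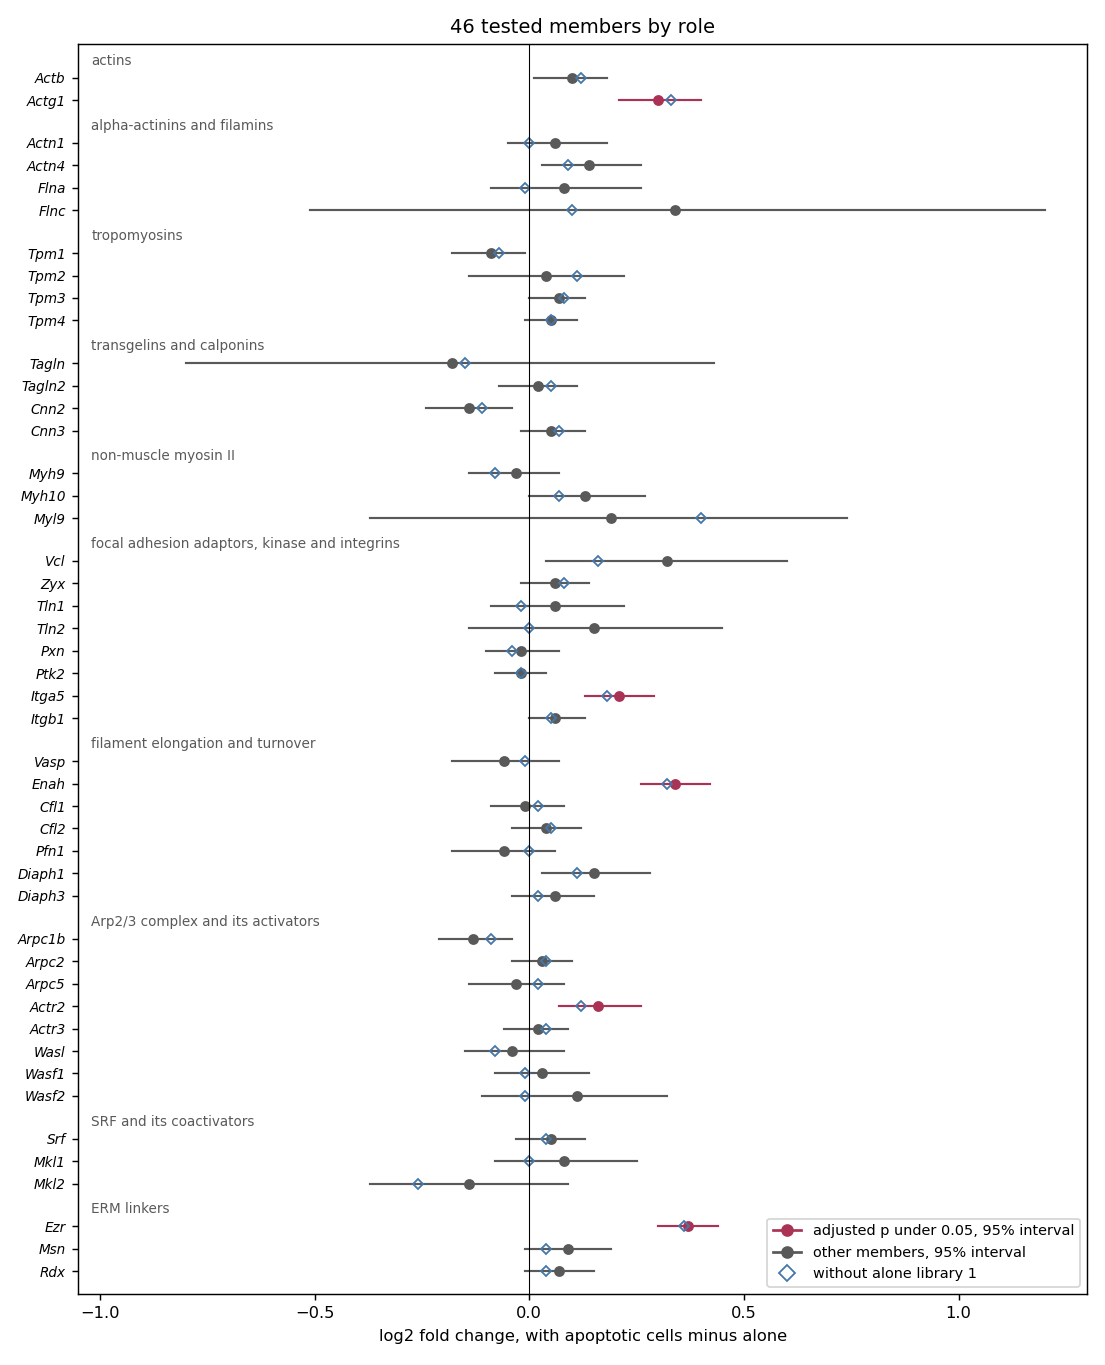
Log2 fold changes of the 46 tested members (x axis, with apoptotic cells minus alone) by role (y axis), as points with 95% intervals from limma. Red marks the 5 members with an adjusted p under 0.05, from Actr2 at 0.16 to Ezr at 0.37, and open diamonds give the values without alone library 1.

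Reads in named genes came to between 22.7 and 29.7 Mreads (megareads) per library. Alone library 1 stood apart. On the leading principal component of all tested genes it had a score of -25.1, against -9.1 to -5.7 for the rest of its group and 9.8 to 13.6 for the co-cultures. Of the fibroblast markers, Vim (vimentin, at means of 111964 normalized counts alone and 130760 in co-culture), Fn1, Col6a1 and Pdgfra were present, while Thy1 was at 0 in every library and Col1a1 and Col1a2 had means of at most 1.41 normalized counts. The 13 fibroblast markers in the table summed to 154715 to 158505 normalized counts in cells alone and 181199 to 183115 in the co-cultures, most of it from Vim. Of the 9 tested, Vim and Col6a1 (9418 and 14056) rose and Dcn (decorin, 953 and 767) fell by limma, at adjusted p = 0.00281, 2.02e-05 and 0.0022, so the markers did not move one way. Their part in the member results was not tested. Of 12 epithelial markers 5 were at 0 in all libraries (Krt14, Krt18, Krt19, Cldn3 and Cldn4). Cdh1, E-cadherin, was present and fell from 242 to 206 normalized counts (limma adjusted p = 0.0439), and Krt5 had means of 82.1 and 71.2. From recovered reads, edgeR called 1 epithelial marker lower and DESeq2 called 0.

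Ezrin, moesin and radixin fasten actin filaments to membrane proteins such as CD44 at the cell cortex. Ezr had 12726, 12875, 13165 and 13532 normalized counts in the libraries of cells alone and 17044, 16563, 17293 and 16736 in the co-cultures. The groups were far apart, and within each group the libraries lay close together. Ezr rose from 13074 ± 355 to 16909 ± 324 normalized counts (mean ± SD, n = 4). By limma the log2 fold change was 0.37 with an SE of 0.03 (adjusted p = 6.75e-05). Moesin, the product of Msn, stood at 18344 ± 1208 normalized counts in cells alone and 19454 ± 325 in the co-cultures (values in pairs keep this order from here on), with a log2 fold change of 0.09 (95% interval -0.01 to 0.19, limma adjusted p = 0.252). Radixin, from Rdx, stood at 9526 ± 430 and 9984 ± 223 (0.07, 95% interval -0.01 to 0.15, limma adjusted p = 0.276). For both of these genes alone library 1 was the lowest of the 8, and the groups overlapped. Ezr took 30.9 to 33.3% of the normalized counts of the 3 genes in cells alone and 36.2 to 36.7% in the co-cultures. That share is not per transcript length, so it describes a shift between libraries and not the make-up of the protein family.

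Among genes whose products meet these linkers at the membrane, 2 of 7 tested rose (28.6%, beside 6.36% of all tested genes) and none fell (beside 5.31%). Cd44, the hyaluronan receptor, rose from 20645 ± 496 to 25024 ± 355 normalized counts (0.28 ± 0.03 as log2 fold change ± SE, limma adjusted p = 0.000265). Its values ran from 20282 to 21370 in cells alone and from 24641 to 25484 in the co-cultures. Sdc4, the proteoglycan syndecan 4, rose by 0.14 (SE 0.03, limma adjusted p = 0.0245), with an adjusted p of 0.0501 to 0.0805 when alone library 2, alone library 3 or co-culture library 1, 3 or 4 was left out. The other 5 did not pass, and Nf2, the tumour suppressor merlin related to these linkers, had a log2 fold change of -0.06 (adjusted p = 0.26). At an unadjusted p under 0.05, 1 of the 7 was lower. This was Icam1, named after its values were seen, at 8529 ± 161 and 7976 ± 188 normalized counts (-0.10, limma adjusted p = 0.0657). Icam1 was lower in every co-culture than in every library of cells alone.

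The cytoplasmic actins are near-identical proteins made in almost every cell. Actg1 had 15968, 14241, 15168 and 15579 normalized counts in cells alone and 18704, 19157, 17742 and 19539 in the co-cultures. Every co-culture lay above every library of cells alone. It rose from 15239 ± 741 to 18786 ± 775 normalized counts (mean ± SD, n = 4). By limma the log2 fold change was 0.30 with an SE of 0.04 (adjusted p = 0.00179). Actb, cytoplasmic beta-actin, had 88630, 82194, 82596 and 86215 in cells alone and 90383, 88476, 88572 and 95523 in the co-cultures. Its groups overlapped, since alone library 1 lay above co-culture libraries 2 and 3. Actb had a log2 fold change of 0.10 (95% interval 0.01 to 0.18, limma adjusted p = 0.133), and the adjusted p ran from 0.0019 to 0.307 over the alternatives. It passed on leaving out alone library 1 (0.12, adjusted p = 0.0019) and under array weights (0.00519). Actg1 took 14.8 to 15.5% of the summed counts of both genes in cells alone and 16.7 to 17.8% in the co-cultures, with no overlap. Whether the fold changes of the 2 genes differ was not tested. Acta2, the smooth muscle alpha-actin that marks contractile fibroblasts, stood at 7.1 to 11.4 normalized counts in cells alone and 7.69 to 13.3 in the co-cultures, too low to be tested. Reads that fit more than 1 actin gene can be split between copies by the counting, so the actin values carry that uncertainty.

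**Figure D2:**
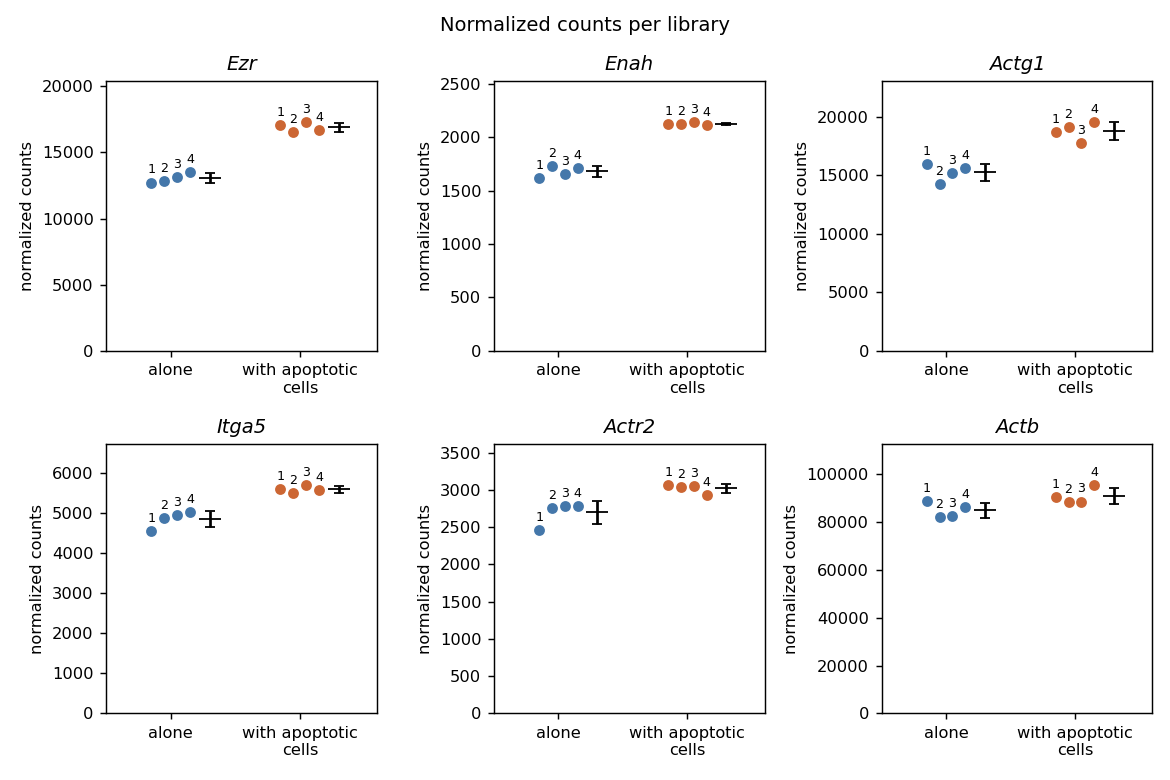
Normalized counts per library (y axis, from 0) of the 5 members that rose and of Actb, for cells alone (blue) and with apoptotic cells (orange), with library numbers above the points and mean ± SD as bars. Ezr goes from a mean of 13074 to 16909 and Enah from 1680 to 2128 with no overlap, while the Actb groups overlap.

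Of the genes for filament elongation and turnover, 1 of 7 rose and none fell. Enah, which shields growing filament ends from capping, had 1617, 1728, 1660 and 1714 normalized counts in cells alone and 2129, 2121, 2142 and 2118 in the co-cultures. The co-cultures were nearly identical and all lay above the cells alone. Enah rose from 1680 ± 51 to 2128 ± 10.7 normalized counts (mean ± SD, n = 4). By limma the log2 fold change was 0.34 with an SE of 0.03 (adjusted p = 0.000231). Vasp, of the same family, stood at 1802 ± 147 and 1731 ± 62.9 normalized counts (-0.06, 95% interval -0.18 to 0.07, limma adjusted p = 0.567). The share of Enah in the summed counts of both was 44.8 to 50.7% in cells alone and 53.9 to 56.2% in the co-cultures. Diaph1, the formin mDia1, stood at 1299 ± 101 and 1443 ± 31.7 (0.15, limma adjusted p = 0.099), with co-culture library 4, at 1395, just below alone library 4, at 1403. It passed without alone library 1 (0.11, adjusted p = 0.0393). Diaph3, the related formin mDia2, had a log2 fold change of 0.06 (adjusted p = 0.409).

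Cfl1 and Pfn1 encode cofilin, which severs filaments, and profilin, which feeds monomers to growing ends. Cfl1 ran from 33417 to 37263 normalized counts in cells alone and from 33991 to 35960 in the co-cultures, a log2 fold change of -0.01 (95% interval -0.09 to 0.08, limma adjusted p = 0.911) whose sign turned without alone library 1 (0.02). Pfn1 had 7333 normalized counts in alone library 1, 6173 to 6350 in the other alone libraries and 6046 to 6579 in the co-cultures (-0.06, adjusted p = 0.539, and 0.0008 without alone library 1). Cfl2, the muscle-type cofilin, had a log2 fold change of 0.04 (adjusted p = 0.55). The intervals of all of these members reach no farther than 0.18 from 0.

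The Arp2/3 complex was measured through 5 members and its activators through 3, and 1 of the 8 rose. Actr2 had 2461, 2755, 2785 and 2790 normalized counts in cells alone and 3068, 3042, 3047 and 2927 in the co-cultures. All co-cultures lay above all cells alone, and alone library 1 was well below the rest of its group. Actr2 rose from 2698 ± 158 to 3021 ± 63.3 normalized counts (mean ± SD, n = 4). By limma the log2 fold change was 0.16 with an SE of 0.04 (adjusted p = 0.0388). This was the largest adjusted p of the 5 calls. It was lost without any 1 of alone libraries 2, 3 and 4 or of the 4 co-culture libraries (adjusted p = 0.0518 to 0.115), and held without alone library 1 (0.12, adjusted p = 0.00214).

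Actr3, the Arp3 partner of Arp2, stood at 14283 ± 559 and 14432 ± 154 normalized counts, a log2 fold change of 0.02 (95% interval -0.06 to 0.09, limma adjusted p = 0.794, and -0.01 without alone library 2). Arpc1b, a regulatory subunit of the complex, was on the other side, with 16138 to 18205 in cells alone and 15071 to 15781 in the co-cultures. Its groups did not overlap, yet it did not pass (-0.13, SE 0.04, limma adjusted p = 0.0701), and it fell without alone library 1 (-0.09, adjusted p = 0.00678). Arpc2 and Arpc5, further subunits, had log2 fold changes of 0.03 and -0.03 (adjusted p = 0.624 and 0.754), and that of Arpc5 was 0.02 without alone library 1. Among the activators, Wasl (N-WASP) stood at -0.04, Wasf1 (WAVE1) at 0.03 and Wasf2 (WAVE2) at 0.11 on the log2 scale (adjusted p = 0.678, 0.729 and 0.506). Wasf2 had 2776 normalized counts in alone library 1 and 3676 to 3986 in the others of that group, with 3791 to 3868 in the co-cultures. Without that library the values of Wasf1 and Wasf2 were both -0.01. None of 4 other tested Arp2/3 subunits and none of 8 tested WASP and WAVE regulators passed by limma, edgeR or DESeq2, and limma gave 0 in each list even at an unadjusted p under 0.05.

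At focal adhesions, 1 of 8 members rose. Itga5 pairs with integrin beta-1 to bind fibronectin. It had 4560, 4871, 4943 and 5024 normalized counts in cells alone and 5600, 5501, 5705 and 5575 in the co-cultures, with no overlap. Itga5 rose from 4850 ± 203 to 5595 ± 84.4 normalized counts (mean ± SD, n = 4). By limma the log2 fold change was 0.21 with an SE of 0.04 (adjusted p = 0.00521). Itgb1, its beta partner, also lay higher in every co-culture, at 21404 to 22091 against 20291 to 21226, but did not pass (0.06, 95% interval -0.00 to 0.13, limma adjusted p = 0.198). Fn1, which encodes their ligand fibronectin, stood at 31773 ± 6084 and 34175 ± 1246 normalized counts (0.13, limma adjusted p = 0.524). Its value in alone library 1 was 23091, and those in the other libraries of the group were 32953 to 37276.

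Vcl, vinculin, links talin to actin at adhesions under tension. It had 516, 805, 804 and 790 normalized counts in cells alone and 852, 913, 920 and 900 in the co-cultures. The groups did not overlap, and the value of alone library 1 lay far below the other 3 of its group. With all libraries Vcl did not pass (0.32, SE 0.13, limma adjusted p = 0.133). Without alone library 1 it rose by 0.16 (SE 0.04, adjusted p = 0.00502).

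The other adhesion members did not pass by limma, edgeR or DESeq2. Zyx, zyxin, which gathers on stress fibres under strain, had 1404 to 1499 normalized counts in cells alone and 1503 to 1544 in the co-cultures (0.06, adjusted p = 0.298). Ptk2, the focal adhesion kinase FAK, lay within 4223 to 4322 in all 8 libraries (-0.02, 95% interval -0.08 to 0.04, limma adjusted p = 0.704). Pxn, the adaptor paxillin, lay within 1442 to 1538 (-0.02, 95% interval -0.10 to 0.07, adjusted p = 0.825). Talin 1 and talin 2, the integrin activators from Tln1 and Tln2, had log2 fold changes of 0.06 and 0.15 (adjusted p = 0.605 and 0.485). Both were lowest in alone library 1, at 7414 and 1378 normalized counts, and without it the values were -0.02 and -0.003.

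Tropomyosins wrap along filaments and decide which proteins may bind there. None of the 4 passed by limma, edgeR or DESeq2. Tpm1 was lower in every co-culture, at 1430 to 1496 normalized counts against 1521 to 1647 (-0.09, SE 0.04, adjusted p = 0.154). Tpm3 and Tpm4 were higher in every co-culture, though the Tpm3 groups nearly touched at 7723 normalized counts (0.07 and 0.05, adjusted p = 0.212 and 0.285). Tpm2 had 0.04 (adjusted p = 0.79), and -0.03 without alone library 2. At an unadjusted p under 0.05, 1 tropomyosin was lower and 0 were higher. Tpm3 passed without alone library 1 (0.08, adjusted p = 0.0175).

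Calponins and transgelins bind along filaments as well, and in smooth muscle they mark the contractile state. Cnn2 stood at 5935 ± 302 and 5387 ± 212 normalized counts (-0.14 ± 0.04 as log2 fold change ± SE, limma adjusted p = 0.066). It fell without alone library 1 (-0.11, adjusted p = 0.00921) and without alone library 2 (-0.17, adjusted p = 0.0394). Cnn3, a calponin of many tissues, lay slightly higher in every co-culture (0.05, adjusted p = 0.326) and Tagln2, the transgelin found outside smooth muscle, had 0.02 (adjusted p = 0.836). The smooth muscle forms were scarce or missing. Cnn1 had 0 reads in all 8 libraries, which allows up to 3 reads per library, a floor that covers counting error only. Tagln had 14.5 to 26.4 normalized counts in cells alone and 10.8 to 25.3 in the co-cultures (-0.18, 95% interval -0.80 to 0.43, adjusted p = 0.709). Myl9, the smooth muscle type myosin light chain, had 14.2 to 30.4 and 17.7 to 26.7 (0.19, 95% interval -0.37 to 0.74, adjusted p = 0.668). Differences within those intervals were not detectable at this depth.

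The heavy chains of non-muscle myosin II supply the contractile force. Myh9 stood at 13867 ± 916 and 13539 ± 378 normalized counts (-0.03, 95% interval -0.14 to 0.07, limma adjusted p = 0.69). It was 0.0007 without alone library 2, and without alone library 1 it fell by 0.08 on the log2 scale (adjusted p = 0.0371). Myh10 stood at 8456 ± 778 and 9254 ± 322 (0.13, 95% interval 0.00 to 0.27, adjusted p = 0.189). Of the cross-linkers, Actn4 (alpha-actinin 4) was higher in every co-culture, at 3766 to 3890 against 3085 to 3731 normalized counts, and did not pass (0.14, limma adjusted p = 0.107). It passed without alone library 1 (0.09, adjusted p = 0.0203). Actn1 (alpha-actinin 1) and Flna (filamin A) had log2 fold changes of 0.06 and 0.08 (adjusted p = 0.479 and 0.54). For Flna the value turned to -0.01 without alone library 1, in which it had 29881 normalized counts against 37521 to 40996 in the rest of its group. Flnc, the muscle filamin, was at 11.4 to 34.5 normalized counts with no separation of the groups (0.34, SE 0.38, limma adjusted p = 0.602).

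None of SRF and its 2 coactivators passed by limma, edgeR or DESeq2, and at an unadjusted p under 0.05 limma gave 0. Srf stood at 1834 ± 47.3 and 1905 ± 49 normalized counts (0.05, 95% interval -0.03 to 0.13, limma adjusted p = 0.365). Mkl1 (MRTF-A) had 0.08 (adjusted p = 0.501), and -0.003 without alone library 1. Mkl2 (MRTF-B) had 1261 normalized counts in alone library 1, 1675 to 1896 in the other alone libraries and 1392 to 1567 in the co-cultures. With all libraries it did not pass (-0.14, SE 0.10, limma adjusted p = 0.414), while without alone library 1 it fell by 0.26 (SE 0.04, adjusted p = 7.01e-05), the largest fold change among the 9 members gained when that library was left out. Of 13 tested SRF targets outside the member list, 1 rose and 1 fell, and 11 had a log2 fold change below 0 (median -0.06). Those above 0 made up 15.4%, beside 50.4% of all tested genes. Smtn, smoothelin of contractile cells, rose by 0.20 (SE 0.04, limma adjusted p = 0.0153), and it missed the threshold without co-culture library 1, 2 or 4 (adjusted p = 0.0504 to 0.0586). Csrp1, a LIM protein on actin bundles that also stood in the list of bundling genes, fell from 6060 ± 64.2 to 5365 ± 129 normalized counts (-0.18, SE 0.03, adjusted p = 0.00452). At an unadjusted p under 0.05, 2 of the 13 SRF targets were higher and 4 lower by limma. The largest change among the 13 was in Ankrd1, named after its values were seen. It stood at 75.3 and 54.5 normalized counts with no overlap and did not pass (-0.44, limma adjusted p = 0.0691). The matricellular targets Cyr61 and Ctgf had -0.05 and -0.03 (adjusted p = 0.616 and 0.881). Both were highest of the 8 libraries in alone library 1, at 1963 and 647 normalized counts.

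**Figure D3:**
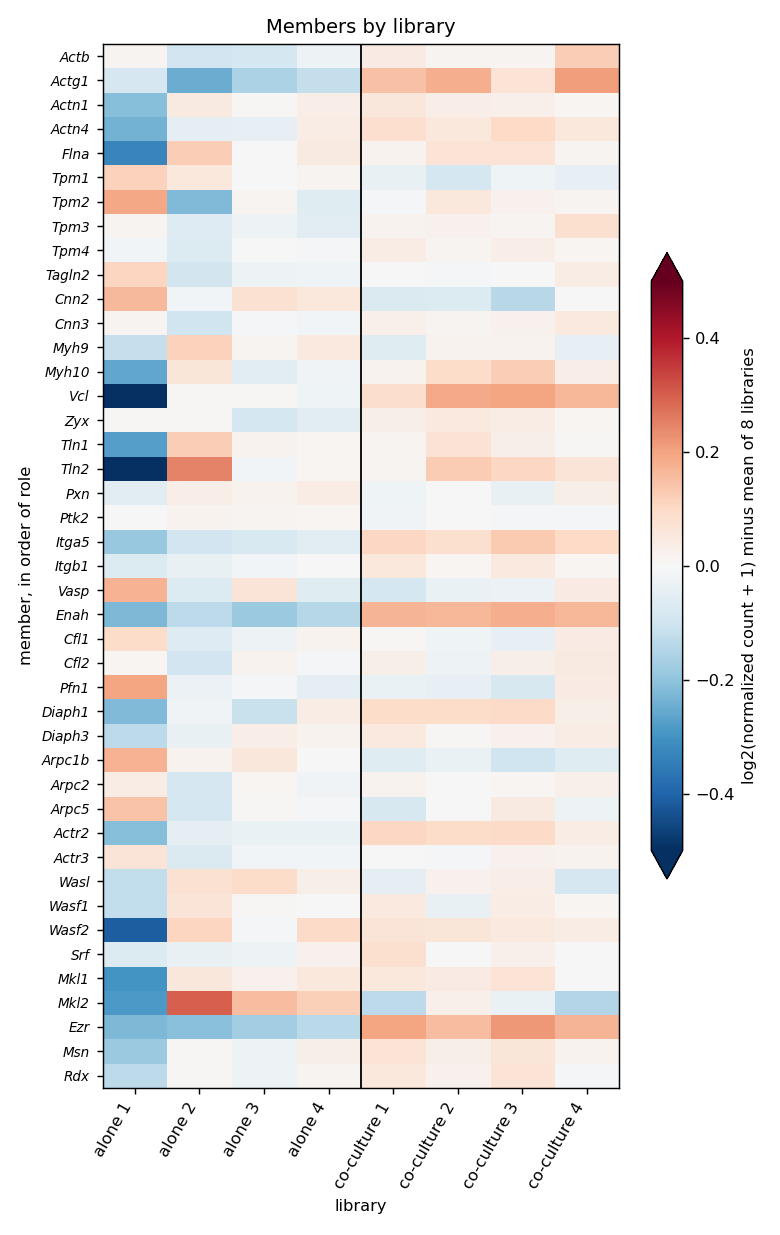
Log2(normalized count + 1) minus the mean of the 8 libraries (colour, limits -0.5 and 0.5) for the 43 members whose mean reached 100 normalized counts (rows, by role) in each library (columns). Enah, Ezr, Actg1 and Itga5 are among the members that separate the groups in all libraries. Vcl separates them too and, like Tln2, Wasf2, Flna and Mkl1, is low in alone library 1.

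Many members thus differed from the rest of the group in alone library 1. It held the lowest value of all 8 libraries in 24 of the 46 tested members and the highest in 12. Members at least 0.1 lower there on the log2 scale than the mean of alone libraries 2 to 4 numbered 20, and 10 were at least 0.1 higher. Low ones included Vcl and Tln2 (both -0.63), Wasf2 (-0.48), Mkl2 (-0.48), Flna (-0.39), Mkl1 (-0.34) and Tln1 (-0.32). High ones included Tpm2 (0.28), Pfn1 (0.23), Vasp (0.20), Arpc5 (0.17) and Arpc1b (0.15). The median absolute deviation of members there was 0.147, beside 0.168 over all tested genes, so its size was not larger in the members. Its direction differed. Within its group, alone library 1 was lowest in 25 of the 46 members, beside 39.6% of all tested genes. It was highest in 16, beside 39.4%, so the members leaned lower there than genes at large. The SD was larger in cells alone than in the co-cultures for 42 of the 46 members with all libraries and for 27 without alone library 1. The median co-culture SD was 41.4% of the alone SD in the members, beside 60.3% over all tested genes. In the members it was 88.3% without alone library 1. When this library was left out, 10 members were called higher and 4 lower, 30.4% of those tested beside a background of 26.0%. The higher ones were 21.7% beside 13.4%, and the lower ones 8.7% beside 12.5%. All 5 members called with all libraries were among these 14. The other 9 were Actb, Actn4, Tpm3, Vcl and Diaph1, higher, and Cnn2, Myh9, Arpc1b and Mkl2, lower.

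Other actin and adhesion genes, taken from 12 lists, changed in both directions. Of the 161 genes present, 119 were tested. Of these 10 rose and 7 fell (8.4% and 5.88%), 14.3% beside 11.7% of all tested genes, with a median log2 fold change of -0.02. Without alone library 1, 14 were higher and 22 lower, 30% of 120 tested beside 26.0% of all tested genes. Without co-culture library 1, 2 were higher and 3 lower. Over all genes the counts also dropped without that library, from 858 to 416 higher and from 716 to 356 lower. Fscn1, fascin, which bundles filaments in filopodia, fell from 2223 ± 76.5 to 1868 ± 43.7 normalized counts (-0.25 ± 0.04 as log2 fold change ± SE, limma adjusted p = 0.00231). Its values ran from 2135 to 2321 in cells alone and from 1816 to 1906 in the co-cultures. Fascin and Csrp1 were the bundling genes with the smallest adjusted p, in a list of 12 tested with 2 rises and 2 falls. The 2 rises, Pdlim5 and Palld, were named after their values were seen (0.28 and 0.17, limma adjusted p = 0.0172 and 0.0333). Pdlim5 missed the threshold without any 1 of co-culture libraries 1 to 3 (adjusted p = 0.054 to 0.0597), and Palld without alone library 2 or 3 or any 1 of the 4 co-cultures (0.0665 to 0.102). None of 18 tested genes of monomer binding, capping and severing passed by limma or edgeR and 1, Ssh1, a cofilin phosphatase named after its values were seen, by DESeq2. At an unadjusted p under 0.05 limma gave 3.

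Myosin phosphatase targets the myosin light chain, and 2 of its regulatory subunits moved in opposite directions. Ppp1r12a rose from 4720 ± 314 to 5433 ± 137 normalized counts (0.21 ± 0.05 as log2 fold change ± SE, limma adjusted p = 0.0207), and Ppp1r12b fell from 3279 ± 455 to 2431 ± 126 (-0.42, SE 0.09, adjusted p = 0.0147). Ppp1r12a missed the threshold when co-culture library 1, 2 or 3 was left out (adjusted p = 0.0667 to 0.0689), and Ppp1r12b when alone library 3 or 1 of co-cultures 1 and 4 was (0.0507 to 0.0522). Of 5 other formins tested 1 rose and 1 fell. Fmnl2, which acts in lamellipodia, rose by 0.25 (adjusted p = 0.0235) and Fmnl3 fell by 0.14 (adjusted p = 0.0343). Fmnl2 missed the threshold without alone library 3 and without each of the 4 co-cultures (adjusted p = 0.0578 to 0.0752), and Fmnl3 without any library other than alone library 1 (adjusted p = 0.0695 to 0.101).

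Effectors of the GTPase Cdc42 link it to actin and septin filaments. Cdc42ep2, such an effector of the Borg family, rose from 308 ± 19.4 to 389 ± 24 normalized counts (0.34 ± 0.07 as log2 fold change ± SE, limma adjusted p = 0.0109). Cdc42ep1 rose by 0.15 (adjusted p = 0.0177), and it missed the threshold without co-culture library 1 or 2 (adjusted p = 0.0686 and 0.0525). Cdc42 itself had a log2 fold change of -0.03 (adjusted p = 0.645). Of 8 other integrins tested, only Itga3, a laminin receptor subunit, passed (-0.24, SE 0.07, limma adjusted p = 0.0384), and it missed the threshold without any library other than alone library 1 (adjusted p = 0.0634 to 0.111). Of 24 other focal adhesion genes 1 rose and 1 fell. Fermt2, kindlin 2, an integrin activator, rose by 0.13 (adjusted p = 0.0359), and it missed the threshold without any 1 of alone libraries 3 and 4 and the co-cultures (adjusted p = 0.0705 to 0.103). Ptk2b, the kinase PYK2 related to FAK, fell from 73 ± 3.1 to 52.6 ± 4.53 normalized counts (-0.47, SE 0.10, adjusted p = 0.016).

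**Figure D4:**
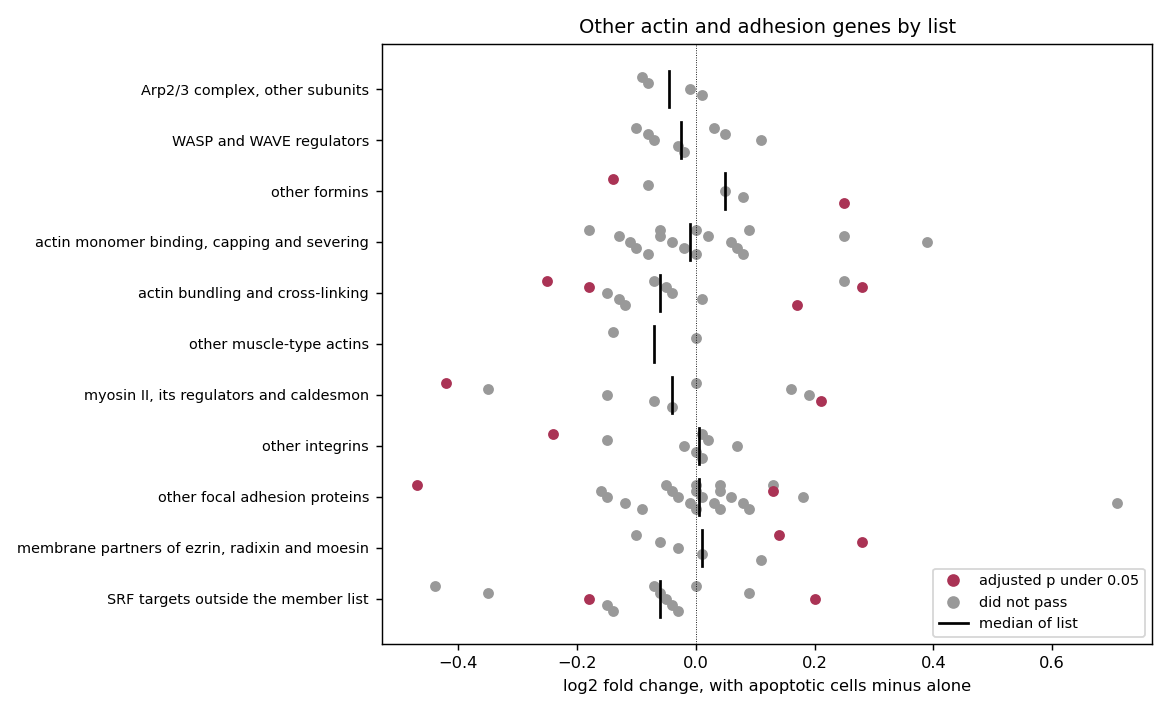
Log2 fold changes (x axis, with apoptotic cells minus alone) of the tested genes in 11 of the 12 lists of other actin and adhesion genes (y axis, points spread vertically to be seen), with list medians as bars and red for an adjusted p under 0.05. Rises and falls stand side by side in most lists with a called gene, and list medians lie between -0.07 and 0.05.

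Traces of some scarce actin regulators, several known from blood cells, were found only in the co-cultures or were higher there. Of 34 listed genes that had reads but were below the limit for testing, 5 were higher in every co-culture than in every library of cells alone and 1 was lower. Among all 6425 genes with reads below that limit, 1.87% were higher in this way. Cyfip2, a WAVE complex subunit, had 0 reads in all 4 libraries of cells alone and 10, 5, 9 and 8 in the co-cultures. Evl, an Ena/VASP protein abundant in lymphocytes, had 0 and then 5, 7, 6 and 6 reads. Arhgdib, a gene known from blood cells, had 0 and then 1, 3, 5 and 3. Marcksl1, a MARCKS-like actin binder, had 3 reads in cells alone and 22 in the co-cultures in total, and Nckap1l, the WAVE complex subunit of blood cells, 6 and 15. These 5, and Itga11, which had 1 read in each library of cells alone and 0 in the co-cultures, were named after their values were seen.

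**Figure D5:**
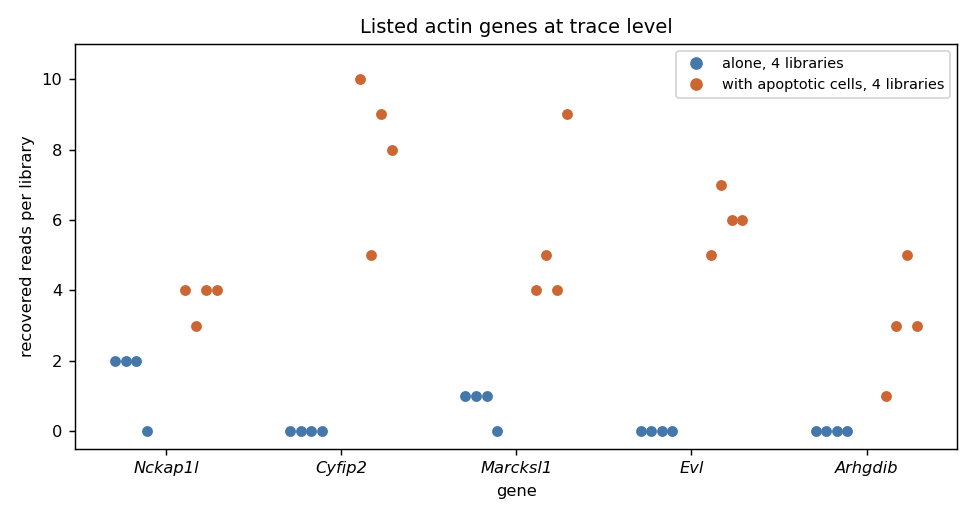
Recovered reads per library (y axis) for 5 listed actin genes below the limit for testing (x axis), in cells alone (blue) and with apoptotic cells (orange). Cyfip2, Evl and Arhgdib are at 0 in all 4 libraries of cells alone and reach at most 10 reads with apoptotic cells.

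T cell markers were also scarce. Of 25 listed, 23 were in the table, and 5 of these, among them Cd3d, Cd3g and Cd2, were at 0 in all libraries. Summed over the 23, levels were 813 to 962 normalized counts in cells alone and 707 to 774 in the co-cultures, most of it from Themis and Lat, with means of 631 and 204 in cells alone and 511 and 177 in the co-cultures. Themis and Cd28 (28.3 and 17.6) were the 2 of 5 tested T cell markers that passed by limma, and both fell (adjusted p = 0.0112 and 0.0385). From recovered reads, edgeR called 2 T cell markers lower and DESeq2 only 1. The scarcest T cell markers went the other way. The 16 with at most 5 reads in cells alone in total had 9 reads there and 45 in the co-cultures. Of these, 9 had more reads in co-culture and 1 fewer. Picking genes by few reads in cells alone favours such a rise. The same sums were 9 and 22 for 4 myeloid markers and 5 and 10 for 9 epithelial markers. In each of these 2 lists, 2 such markers had more reads in co-culture and 1 fewer. Much of the myeloid sum in the co-cultures came from Ptprc (means of 0.761 and 3.59 normalized counts), which stood in the T cell list as well. Myeloid markers summed to 59.8 to 99.2 and 72.1 to 97.8 normalized counts, and epithelial markers to 318 to 342 and 268 to 300. The part of human actin RNA in the Actg1 and Actb values was not tested.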

How the data were processed

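The authors deposited 1 table for the 8 libraries, with a signal per gene and library (the count of reads over a size factor of that library), per the file headers and values. In every library 100% of values were whole multiples of 1 read within 0.01 reads, so whole reads were recovered. The submitters' processing notes list STAR, featureCounts, DESeq2 and FastQC, with no version. Genome build, annotation and strand setting were not given in the sources used here, nor was the handling of human reads, some of which may have been assigned to a similar hamster gene. The deposited log2 fold changes and p-values, per the file headers, were used only for the authors' count of called members, and the deposited test score was not used. Columns were matched to titles by replicate number and the letters AC. A row with no gene name (0.14 to 0.176% of reads) was left out.

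The main test was limma-trend (limma 3.58.1, R 4.3.3) on log2(normalized count + 1), fitted to the 13494 genes whose mean reached 10, with a group term alone and Benjamini-Hochberg adjustment over all of them. This scale understates the change of low genes. Alternatives were other pseudocounts, filters and scaling, edgeR 4.0.16, DESeq2 1.42.0, array weights, a replicate block and leaving out each library. Where a library is left out, its group keeps 3. No pair of replicates agreed within sampling noise (chi-square per degree of freedom 1.56 to 30.7). Figures used matplotlib 3.10.9.

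Named genes were all members, and of each other list the 2 called genes with the smallest adjusted p; others are marked in the text as named after their values were seen or as markers and partners. Members and lists were chosen with earlier results of these data known, so no list was tested as a set. Levels were not compared between genes, since no transcript lengths were used. No sequences or positions are given, and the results of 1 list are not reported here.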

Additional observations from a re-analysis of the deposited data

Results flagged for a closer look

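In 7 of 92 groups of 4 libraries (46 members in 2 groups), 1 library lay far from the other 3, by a gap over 0.829 of the range. Chance gives about 1 in 20 such groups. Alone library 1 was the one in 5 of the 7. It was low in Actn1 (6031 normalized counts), Vcl (516), Actr2 (2461) and Mkl1 (1009), and high in Pfn1 (7333). Co-culture library 4 was high in Tpm3 (8099) and low in Diaph1 (1395). The results for Vcl, Actr2, Mkl1 and Pfn1 without alone library 1 are given beside their values above.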

How the results depend on the processing

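Ezr, Enah, Actg1 and Itga5 were higher and passed the threshold under all 17 alternatives run, with log2 fold changes of 0.35 to 0.39, 0.32 to 0.36, 0.27 to 0.33 and 0.18 to 0.22. Members called higher numbered 5 with all libraries, 4 to 10 when a library was left out, 10 with array weights and 4 with the replicate block. Members called lower numbered 0, then 0 to 4, 3 and 0. The 4 were without alone library 1, and Cnn2 alone was called lower without alone library 2. Other listed genes called higher numbered 10, then 2 to 14, 16 with array weights and 5 with the block, and those lower 7, then 3 to 22, 21 and 3. Over all genes the counts were 858 higher, then 416 to 1811, 1804 with array weights and 498 with the block, and 716 lower, then 356 to 1694, 1674 and 400. The highest counts were without alone library 1, except the 16, and the lowest without co-culture library 1 for other listed genes called higher and for both counts over all genes. The cause was not tested.

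No pairing by replicate number was seen (correlations of same-numbered deviations -0.090 to 0.068, and -0.13 to 0.172 between other numbers). These correlations cannot show how the cultures were set up. With the replicate block Actr2 did not pass (adjusted p = 0.0846), nor did Fmnl3, Itga3, Ptk2b, Fermt2, Cdc42ep1, Sdc4, Smtn and Palld. DESeq2 also left Ptk2b outside (adjusted p = 0.0507), and no filter Fermt2 (adjusted p = 0.0531).

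The members that changed sign when a library was left out had not passed with all libraries. Their ranges were -0.01 to 0.14 for Flna, -0.03 to 0.11 for Tpm2, -0.36 to 0.02 for Tagln, -0.01 to 0.05 for Tagln2, -0.08 to 0.0007 for Myh9, -0.02 to 0.11 for Tln1, -0.003 to 0.26 for Tln2, -0.03 to 0.02 for Cfl1 (0.01 with array weights), -0.08 to 0.0008 for Pfn1, -0.06 to 0.02 for Arpc5, -0.01 to 0.04 for Actr3, -0.01 to 0.06 for Wasf1, -0.01 to 0.16 for Wasf2 and -0.003 to 0.12 for Mkl1. No scaling moved the median of all genes by over 0.1. Listed members under their newer symbols were not run, since Mkl1 and Mkl2 were in the table.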
